A study of Mus musculus with 25 samples.

Results

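Prodh and 4 further genes of proline metabolism (Aldh4a1, Pycr1, Aldh18a1 and Oat) were followed across mouse hypothalamus and cultured brain endothelial cells. The 5 genes are a named list, of 45706 genes in the hypothalamus table and 44674 in the cell table, and all 5 passed the filter on low counts in every comparison. The list was chosen by name around Prodh, which was selected on its measured fall with high-fat diet in the precipitated RNA, so the members' values in that comparison describe the choice and were not tested. Proline dehydrogenase, made from Prodh, oxidises proline to pyrroline-5-carboxylate (P5C) in mitochondria, and the dehydrogenase made from Aldh4a1 turns P5C into glutamate. In the other direction, P5C synthase (Aldh18a1) makes P5C from glutamate, and the P5C reductases (among them Pycr1 and Pycrl, also called Pycr3) reduce it to proline. Ornithine aminotransferase (Oat) joins the same intermediate to ornithine and so to the urea cycle and polyamines.

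The hypothalamus libraries came from mice 12 weeks old of genotype Slco1c1Cre+/-;ROSA26lSlL10aGFP+/-, in which a tamoxifen-inducible Cre under the Slco1c1 promoter switches on a GFP-tagged ribosomal protein L10a. Controls carried the same alleles. From 3 weeks after tamoxifen, the mice received either the control diet (CD) or a diet rich in fat (HFD, high-fat diet) during 3 days. Hypothalami of 4 mice, 2 of each sex, were pooled per sample, and libraries were made of the whole lysate (INPUT) and of RNA from the ribosomes precipitated through GFP (IP), giving 4 libraries for each diet and fraction. The second table held cEND cells, a mouse brain endothelial line, given vehicle (DMSO) or the Glut1 inhibitor WZB117 at 0.5 or 10 µM, with 1 library per treatment at passages 12, 14 and 18. The replicates of the cell experiment are thus passages of 1 line, the treatment time is not given in the sources used here, and p-values measure the spread between these libraries.

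Total counts were 27.3 to 42.8 M per library (M, 1000000). The IP, labelled endothelial, held more of the 8 endothelial markers than INPUT (summed level 72.3 to 109.4 CPM, counts scaled to a library total of 1000000, in the IP libraries against 15.4 to 21.5 CPM in INPUT), but the 8 astrocyte markers summed to 16070 to 21060 CPM in the IP libraries, and all 8 of both lists were higher in IP than in INPUT. In the cEND libraries the endothelial markers summed to 3356 to 4552 CPM, the neuronal markers to 0.776 to 4.03 CPM and the astrocyte markers to 146.1 to 178.6 CPM. Nearly all of the astrocyte sum was the gap junction gene Gja1 (153.4 to 177.0 of 155.0 to 178.6 CPM with DMSO), and Aqp4, an astrocyte water channel, was at 0 in the DMSO libraries. IP values below therefore belong to a mixture in which astrocyte RNA is abundant, and in such bulk libraries fewer cells of a type and less RNA per cell cannot be told apart.

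Sequence upstream of 4 of the genes is given because the ATF4 list described below was measured beside them. Positions are counted from the RefSeq transcription start, all 5 genes had a RefSeq window (GRCm38.p6), and capitals mark the motifs that were searched on both strands in the 250 bases before the start. The stretches are on the minus strand, from chr16:18089293-18089440 (positions -250 to -103), chr11:120643770-120643919 (-171 to -22), chr19:40588464-40588613 (-150 to -1) and chr7:132576399-132576548 (-150 to -1), in the order printed. The Prodh stretch lies inside the GENCODE gene but outside its exons, and the other 3 lie just outside the GENCODE gene.
Prodh: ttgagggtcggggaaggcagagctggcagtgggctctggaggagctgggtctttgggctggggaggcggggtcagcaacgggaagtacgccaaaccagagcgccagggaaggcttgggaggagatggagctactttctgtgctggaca
Pycr1: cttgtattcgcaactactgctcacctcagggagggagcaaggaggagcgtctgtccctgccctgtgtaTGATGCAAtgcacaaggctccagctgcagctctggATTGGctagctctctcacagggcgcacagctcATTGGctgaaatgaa
Aldh18a1: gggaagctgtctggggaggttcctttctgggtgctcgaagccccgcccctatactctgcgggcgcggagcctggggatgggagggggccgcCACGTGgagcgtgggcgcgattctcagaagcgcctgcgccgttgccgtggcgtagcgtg
Oat: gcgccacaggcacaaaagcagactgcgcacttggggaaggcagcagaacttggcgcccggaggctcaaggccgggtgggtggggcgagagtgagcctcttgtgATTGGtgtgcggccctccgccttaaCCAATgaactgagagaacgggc
The C/EBP-ATF motif TGATGNAA matched in Pycr1 alone of the 5 genes, at position -103, and it occurs in 3.45% of 32851 such windows. The E-box CACGTG matched in Aldh18a1 alone, at -59, and occurs in 6.02% of windows. CCAAT, on either strand, matched in Aldh4a1, Pycr1 and Oat and occurs in 33.8% of windows, and AGAACA, a glucocorticoid receptor half-site found in 16.1% of windows, matched in none of the 5. The matched motifs do not overlap one another, and a match in these letters is a description of the sequence.

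In the tagged-ribosome RNA, the enzymes of proline breakdown and Oat were higher than in whole hypothalamus, and Pycr1 and Aldh18a1, of proline synthesis, were lower. Prodh (ENSMUSG00000003526, GRCm38 chr16:18060357-18090203, minus strand) stood at 4.15, 5.04, 4.59 and 4.74 CPM in CD INPUT and at 2.93, 3.62, 4.56 and 5.44 CPM in HFD INPUT. In IP it stood at 32.3, 33.9, 37.7 and 34.3 CPM with CD and at 23.7, 25.6, 22.9 and 27.1 CPM with HFD. Every IP library was above every INPUT library, and the difference of IP and INPUT was 2.73 ± 0.085 on the log2 scale (SE; adjusted p = 1.94e-19). That was above the log2 difference of 98.1% of the genes tested. The same share was 95.3% for Aldh4a1 and 94.2% for Oat. For Aldh18a1 and Pycr1, whose values follow, it was 33% and 20.6%, so many genes lay further down than these 2. Since 83.7% of the 17592 genes tested passed in this comparison, 41.6% higher and 42.1% lower, passing it is the rule and the size is what sets a gene apart. The share of all genes whose fractions did not overlap was not counted. The non-overlap given for each member is therefore only a description.

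Aldh4a1 (ENSMUSG00000028737, chr4:139622866-139649690, plus strand), the next enzyme of breakdown, stood at 5.89, 5.89, 6.52 and 6.20 CPM in CD INPUT and at 4.53, 5.26, 6.90 and 7.65 CPM in HFD INPUT. Its IP values were 28.0, 26.6, 32.7 and 27.3 CPM with CD and 26.3, 26.5, 24.7 and 32.5 CPM with HFD. IP and INPUT did not overlap, and IP was higher by 2.19 ± 0.087 on the log2 scale (SE; adjusted p = 1.51e-16). The predicted gene Gm21969 shares 1595 exonic bases with Aldh4a1, but its own count was at most 1 in any hypothalamus library and at most 8 in any cEND library.

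Oat (ENSMUSG00000030934, chr7:132557478-132576398, minus strand) was the most abundant of the 5 per length. It stood at 51.9, 56.4, 57.6 and 49.5 CPM in CD INPUT and at 50.6, 57.1, 51.9 and 50.2 CPM in HFD INPUT. In IP it reached 211.5, 223.7, 206.9 and 193.5 CPM with CD and 229.7, 220.3, 219.2 and 212.9 CPM with HFD. The IP libraries were again all above the INPUT libraries, by 2.01 ± 0.045 on the log2 scale (SE; adjusted p = 1.45e-22).

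The 2 synthesis genes on the list went the other way. Aldh18a1 (ENSMUSG00000025007, chr19:40550257-40588463, minus strand) stood at 9.71, 9.67, 9.23 and 9.92 CPM in CD INPUT and at 8.56, 9.72, 10.3 and 9.43 CPM in HFD INPUT. In IP it stood at 6.51, 5.68, 6.34 and 7.34 CPM with CD and at 6.14, 7.40, 6.44 and 8.11 CPM with HFD. All 8 IP libraries were below all 8 INPUT libraries, and IP was lower by a log2 difference of -0.51 ± 0.073 (SE; adjusted p = 7.09e-07).

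Pycr1 (ENSMUSG00000025140, chr11:120635712-120643769, minus strand) was the lowest of the 5. Its INPUT values were 1.96, 1.79, 1.10 and 1.69 CPM with CD and 1.45, 2.07, 1.2 and 1.23 CPM with HFD. Its IP values were 0.611, 0.840, 0.339 and 0.945 CPM with CD and 0.682, 0.664, 0.942 and 0.881 CPM with HFD. These levels rest on 10 to 65 counts in a hypothalamus library. The fractions did not overlap, at a log2 difference of -1.06 ± 0.196 (SE; adjusted p = 2.39e-05).

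**Figure D1:**
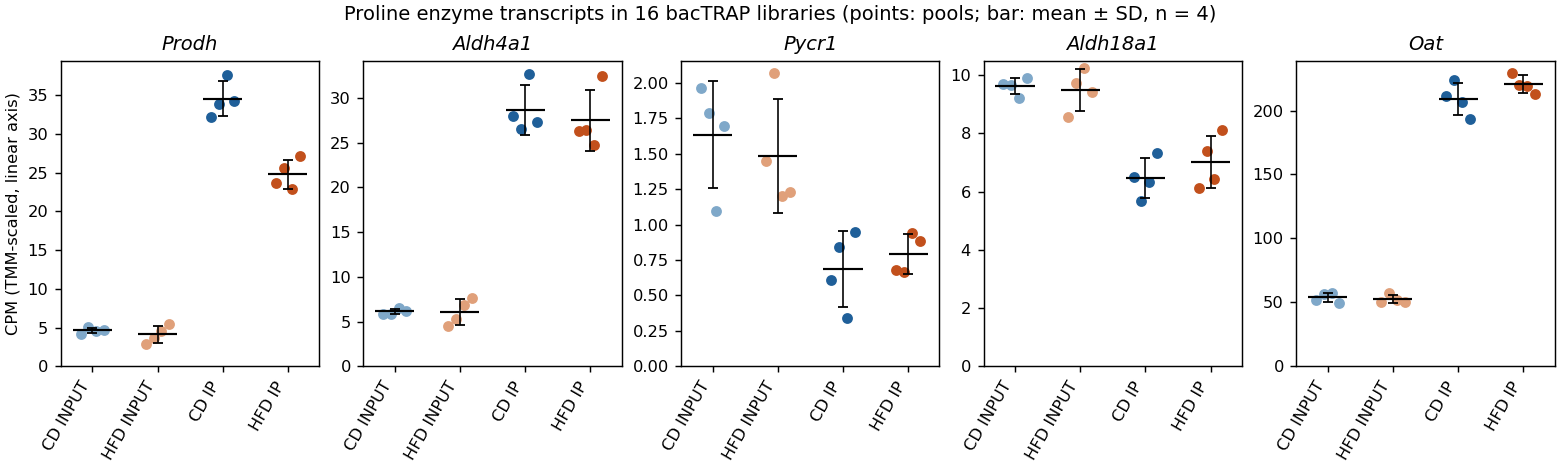
Level of each gene in CPM (linear axis from 0, 1 panel per gene) in the 16 hypothalamus libraries by group; points are pools, lines are means and bars SD (n = 4). Prodh, Aldh4a1 and Oat are higher in IP than in INPUT, Pycr1 and Aldh18a1 lower, and the HFD IP values of Prodh (22.9 to 27.1 CPM) lie below its CD IP values (32.3 to 37.7 CPM).

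Per kilobase of exon, the order of the genes changed between fractions. The length used was the union of all annotated exons of a gene, which can exceed the length of a transcript. It was 7797 bases for Prodh, 4907 for Aldh4a1, 4072 for Aldh18a1, 3935 for Pycr1 and 2360 for Oat. In INPUT the mean levels were 22.5 ± 1.42 CPM per kb for Oat, 2.35 ± 0.125 for Aldh18a1, 1.24 ± 0.196 for Aldh4a1, 0.562 ± 0.103 for Prodh and 0.397 ± 0.094 for Pycr1 (SD, n = 8 libraries of both diets). In IP they were 91.0 ± 4.75 CPM per kb for Oat, 5.72 ± 0.601 for Aldh4a1, 3.81 ± 0.712 for Prodh, 1.66 ± 0.196 for Aldh18a1 and 0.188 ± 0.053 for Pycr1. P5C synthase thus ranked above both breakdown enzymes in whole hypothalamus and below both in the tagged-ribosome RNA. The order of Prodh and Aldh4a1 in IP depends on the length, since their CPM means there were 29.7 ± 5.55 and 28.1 ± 2.95 (SD, n = 8).

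Unlike Pycr1, the cytosolic P5C reductase Pycrl was higher in IP, by 0.63 ± 0.060 on the log2 scale (SE; adjusted p = 6.24e-10). Per kilobase Pycrl was above Pycr1 in both fractions, at 5.59 ± 0.370 CPM per kb in INPUT and 8.63 ± 0.326 in IP (SD, n = 8). Of the 5 other proline enzymes listed, 4 were measured and all 4 were higher in IP, with a median log2 difference of 0.98 against -0.02 over all genes tested. Of all genes tested, 41.6% were higher in IP. The largest differences among them were those of Pipox, which oxidises pipecolic acid, at 2.36 ± 0.104, and Hoga1, of hydroxyproline breakdown, at 1.33 ± 0.139 (SE; adjusted p = 1.2e-16 and 2.98e-09).

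Carriers that move proline into cells were mostly lower in IP. Of 9 listed, 7 were measured, 6 were lower and 1 was higher, with a median log2 difference of -1.49. Of all genes tested, 42.1% were lower and 41.6% higher. Slc38a2 (SNAT2, a carrier of small neutral amino acids) was lower by a log2 difference of -2.11 ± 0.055, Slc6a15 by -2.16 ± 0.079 and Slc6a7, the brain proline transporter, by -1.50 ± 0.068, whereas Slc1a4 (ASCT1) was higher by 1.75 ± 0.051 (SE; adjusted p at most 2.25e-16 for each).

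Genes that handle the glutamate at the end of proline breakdown went both ways. Of 11, 3 were higher in IP: the mitochondrial glutamate carrier Slc25a18 (log2 difference 3.30 ± 0.058), glutamine synthetase Glul (2.42 ± 0.064) and glutamate dehydrogenase Glud1 (1.80 ± 0.060; SE, adjusted p at most 3.98e-19). The other 8 were lower, among them the aspartate aminotransferase Got1 at -1.17 ± 0.038 (SE; adjusted p = 2.51e-19), and the median of the list was -0.88. Beside these counts, 41.6% of all genes tested were higher and 42.1% lower. The astrocyte and the endothelial markers were also higher, with median log2 differences of 2.94 and 2.27. The neuronal markers were lower, all 7 of 7, with a median of -1.22. The part of cell composition in the members' differences was not tested.

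On the ornithine side of Oat, 7 of 13 measured genes of ornithine, arginine and polyamines were higher in IP and 4 were lower (median 0.24). Ornithine decarboxylase Odc1 was higher by 1.63 ± 0.069, the mitochondrial ornithine carrier Slc25a15 by 1.15 ± 0.065 and the polyamine acetylase Sat1 by 2.31 ± 0.098, while spermine synthase Sms was lower at -1.18 ± 0.052 (log2 ± SE; adjusted p at most 1.27e-12 for each). Of 10 genes that release proline from peptides or load it on tRNA, 5 were higher and 2 lower, led by the synthetase Eprs at 1.10 ± 0.044 (adjusted p = 1.33e-17) and the aminopeptidase Xpnpep1 at 1.23 ± 0.064 (adjusted p = 3.35e-15). Over all genes tested, 41.6% were higher and 42.1% lower in IP, and nothing is read from the counts of either list.

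In whole hypothalamus, 3 days of HFD left no member past the test. Only 0.0355% of the 16879 genes tested passed there, which is 6 genes. The log2 difference of HFD and CD was -0.15 ± 0.158 for Prodh (SE; adjusted p = 0.876), 0.004 ± 0.139 for Aldh4a1 (0.997), -0.15 ± 0.230 for Pycr1 (0.928), -0.02 ± 0.086 for Aldh18a1 (0.978) and -0.04 ± 0.061 for Oat (0.930). The spread was not equal across the groups, since HFD pools 1 and 2 held the lowest values and pools 3 and 4 the highest of both Prodh and Aldh4a1 within HFD INPUT, as their values above show. Within a library the Prodh count was 0.647 to 0.712 of the Aldh4a1 count in HFD INPUT and 0.703 to 0.856 of it in CD INPUT. The mean ratio was lower with HFD, at 0.676 ± 0.029 against 0.757 ± 0.072 (SD, n = 4), and the ranges overlapped only at their ends. This difference of ratios was not tested.

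In IP the diet groups of Prodh did not overlap, their means being 34.6 ± 2.28 CPM in CD IP and 24.8 ± 1.89 CPM in HFD IP (SD, n = 4). The fitted log2 difference was -0.46 ± 0.078 (SE), and it lay between -0.51 and -0.42 in all 13 alternative fits, each with 1 choice changed or 1 library left out. In this comparison 0.0883% of 15858 genes passed the adjusted threshold and 3.58% of the 14960 genes with a mean of at least 0.5 CPM were lower in every HFD library than in every CD library. This is the difference for which Prodh was chosen, so nothing is read from these shares or from the range over the alternative fits.

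The other 4 members were near or above their CD level in the same libraries. The log2 difference was -0.04 ± 0.092 for Aldh4a1, 0.09 ± 0.065 for Oat, 0.14 ± 0.124 for Aldh18a1 and 0.22 ± 0.313 for Pycr1 (SE), and for each of the 4 the diet groups overlapped. The Prodh count was 1.15 to 1.28 of the Aldh4a1 count in CD IP and 0.835 to 0.966 of it in HFD IP. Against Oat it was 0.152 to 0.182 with CD and 0.103 to 0.127 with HFD. Both ratios use the Prodh values for which it was chosen, so that their separation in IP is a description and no support for that difference. Whether the diet difference of Prodh in IP differs from that in INPUT was not tested, because the rule for Prodh used the first of them.

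**Figure D2:**
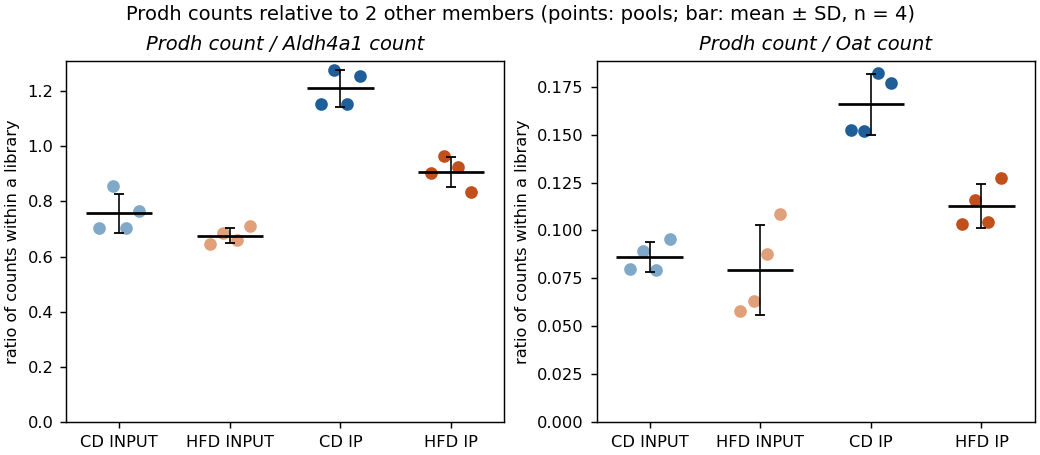
Prodh count divided by the Aldh4a1 count (left) and by the Oat count (right) within each hypothalamus library, on linear axes from 0; points are pools, lines are means and bars SD (n = 4). In IP the HFD ratios (0.835 to 0.966, and 0.103 to 0.127) lie below the CD ratios. In INPUT the ratios to Oat overlap, and those to Aldh4a1 overlap only at the ends of their ranges (0.647 to 0.712 with HFD, 0.703 to 0.856 with CD).

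Some markers moved with diet in the same IP libraries. The 8 astrocyte markers summed to 18250 to 21060 CPM in CD IP and 16070 to 18170 CPM in HFD IP. Of the 8, the glutamate transporter Slc1a2 and angiotensinogen (Agt) were lower in every HFD library, Agt alone passing the test (-0.54 ± 0.093 on the log2 scale, SE; adjusted p = 0.0321), and the other 6 overlapped. Without Slc1a2 the sum was 4147 to 4471 CPM with CD and 4212 to 4562 CPM with HFD, so that the separation of the whole sum lay in that 1 gene. Gene by gene, the log2 difference was below 0 for 6 of the 8 and above 0 for 2, with a median of -0.10. The 2 above 0 were Gfap at 0.30 ± 0.091 and Aqp4 at 0.14 ± 0.078 (SE; adjusted p = 0.208 and 0.522). The endothelial sum overlapped, with 72.3 to 109.4 CPM in CD IP and 77.6 to 97.7 CPM in HFD IP. Although each pool was of both sexes, the summed level of 4 Y-linked genes and Xist also separated the diets, at 59.4 to 73.3 CPM in CD IP and 44.6 to 56.2 CPM in HFD IP. None of the 5 passed the adjusted threshold. The log2 difference was below 0 for all 4 Y-linked genes, at -0.40 ± 0.078 for Ddx3y, -0.42 ± 0.148 for Kdm5d, -0.23 ± 0.107 for Uty and -0.52 ± 0.201 for Eif2s3y (SE; adjusted p = 0.0556, 0.289, 0.42 and 0.326), and 1.05 ± 0.649 for Xist (SE; adjusted p = 0.59). Of these genes Ddx3y alone did not overlap between diets in IP. In INPUT the sums overlapped, at 71.6 to 84.5 CPM with CD and 68.7 to 76.8 CPM with HFD. The log2 differences there were -0.20 ± 0.081 for Ddx3y, -0.17 ± 0.114 for Kdm5d, -0.05 ± 0.105 for Uty, -0.46 ± 0.229 for Eif2s3y and 0.05 ± 0.278 for Xist (SE; adjusted p at least 0.615). The part of these differences in the Prodh values was not tested.

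No gene of the 7 pathway lists around the members passed the diet test in either fraction. Among the other proline enzymes the median log2 difference was -0.24 in INPUT and -0.06 in IP, and Pipox, with the smallest p of the list in INPUT, was at -0.36 ± 0.188 there (SE; adjusted p = 0.702). The proline carriers had medians of -0.05 and -0.14, and the glutamate neighbours of 0 and -0.07. Over all genes the median was 0 in both fractions.

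In cEND cells P5C synthase and Oat were far above both breakdown enzymes, and Pycr1 was not. With DMSO, per kilobase of exon, Oat stood at 31.5 ± 1.75 and Aldh18a1 at 31.3 ± 1.54 CPM per kb, a pair that did not differ beyond its spread. That likeness depends on the exon lengths used, since in CPM Oat stood at 74.4 ± 4.12 and Aldh18a1 at 127.4 ± 6.28. Aldh4a1 stood at 1.95 ± 0.281, Prodh at 1.12 ± 0.205 and Pycr1 at 1.11 ± 0.212 CPM per kb (SD, n = 3 passages). The reductase Pycrl was above Pycr1 here too, at 35.4 ± 2.99 CPM per kb. Pipox, higher in the hypothalamus IP, was at 0 to 0.071 CPM in the DMSO libraries. The cell and hypothalamus tables were normalised apart, so the levels stand side by side with no test between them.

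At 10 µM WZB117, Oat was above DMSO in each passage and Prodh below it. Prodh stood at 8.25, 10.5 and 7.45 CPM with DMSO at passages 12, 14 and 18, at 7.42, 13.5 and 6.49 CPM with 0.5 µM and at 5.06, 8.73 and 4.41 CPM with 10 µM. Passage 14 was the highest at every dose, so that the groups overlapped, while within the passages the log2 difference of 10 µM and DMSO was -0.70, -0.27 and -0.75. In the fit without passage, Prodh differed by -0.53 ± 0.332 (SE; adjusted p = 0.662) and no member was among the 1.27% of 15466 genes that passed. With the passage as a block, which pairs the libraries, 17.9% of 15949 genes passed (8.92% higher and 8.94% lower), and Prodh fell by 0.58 ± 0.132 on the log2 scale (SE; adjusted p = 0.00259).

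Oat stood at 74.9, 78.3 and 70.1 CPM with DMSO, at 70.3, 78.0 and 68.3 CPM with 0.5 µM and at 94.2, 93.6 and 80.0 CPM with 10 µM. The 10 µM and DMSO groups did not overlap, as was so for 9.01% of the 13798 genes with a mean of at least 0.5 CPM in the same direction. The difference was 0.26 ± 0.097 without the block (SE; adjusted p = 0.327) and 0.26 ± 0.063 with it (SE; adjusted p = 0.00383). Within the passages it was 0.33, 0.26 and 0.19. Both blocked calls held when each of the 9 libraries was left out in turn, with adjusted p of 0.000532 to 0.0477 for Prodh and 0.00316 to 0.0478 for Oat.

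The 3 other members were not called at 10 µM with or without the block. Aldh18a1 stood at 120.6, 133.0 and 128.6 CPM with DMSO and at 158.6, 153.0 and 123.1 CPM with 10 µM. It was higher at passages 12 and 14 (log2 difference 0.39 and 0.20) and not at 18 (-0.06), and its blocked difference was 0.18 ± 0.071 (SE; adjusted p = 0.0842), which passed when the passage 18 library of either group was left out. Pycr1 was at 3.42, 4.90 and 4.83 CPM with DMSO and 5.03, 5.71 and 4.33 CPM with 10 µM, a blocked difference of 0.20 ± 0.168 (adjusted p = 0.484). Aldh4a1 was at 8.60, 8.91 and 11.1 CPM with DMSO and 7.53, 8.61 and 9.06 CPM with 10 µM, a blocked difference of -0.18 ± 0.114 (adjusted p = 0.327). Its within-passage log2 differences were -0.19, -0.05 and -0.29, all below 0.

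At 0.5 µM no member moved past the test. Without the block 0% of 15466 genes passed in edgeR, with 55 at an unadjusted p under 0.05, and with the block 0.00627% passed, which is 1 gene. The blocked log2 differences of the members ran from -0.12 ± 0.171 for Pycr1 to 0.01 ± 0.130 for Prodh (SE; adjusted p = 1 for all 5). Between the doses, 10 µM was below 0.5 µM for Prodh by a log2 difference of -0.59 ± 0.132 and above it for Oat by 0.30 ± 0.063 with the block (SE; adjusted p = 0.00219 and 0.000896), where 17.1% of genes passed. The dose difference of Prodh was -0.55, -0.63 and -0.55 within the passages, and its call was lost without the 0.5 µM library of passage 14 (adjusted p = 0.0691).

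**Figure D3:**
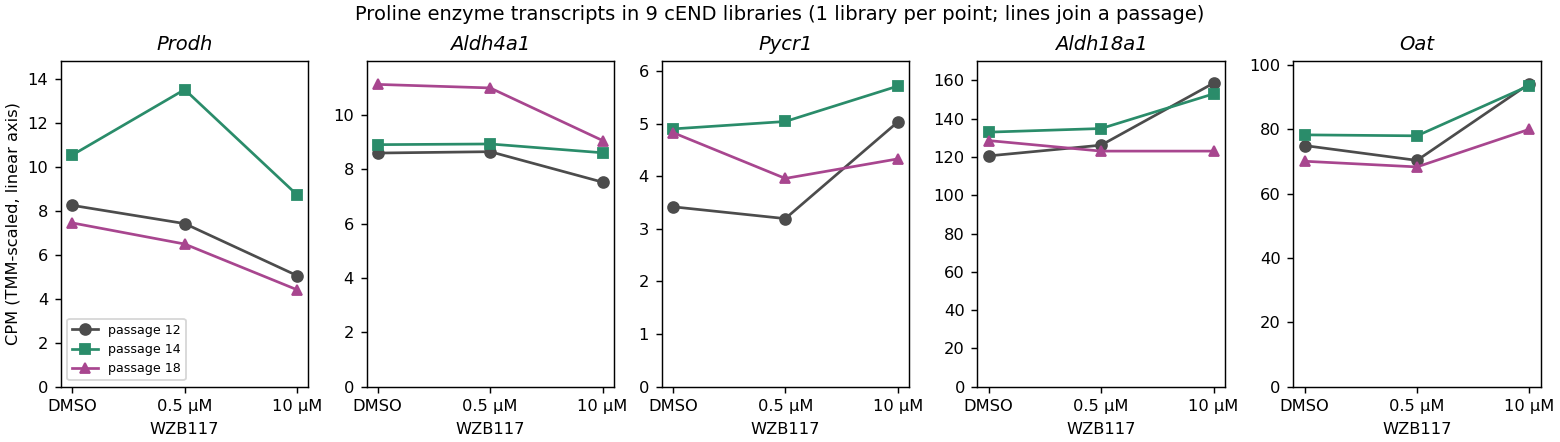
Level of each gene in CPM (linear axis from 0, 1 panel per gene) by WZB117 treatment in 9 cEND libraries; each point is 1 library and lines join the libraries of a passage. Prodh is lower at 10 µM than with DMSO in each passage and highest at passage 14, and Oat is highest at 10 µM in each passage.

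Around the members, the blocked comparison of 10 µM with DMSO held calls in each of the 7 lists, beside 17.9% of all genes tested. Counts of 2 of 9 or 1 of 4 in a list are near that share. The ATF4 list held 11 genes, Atf4 itself and targets that include amino acid synthesis and stress genes. Of the 11, 5 were higher, Atf4 among them, and none lower (median log2 difference 0.35 against -0.02 over all genes). They were led by the cystine carrier Slc7a11 at 1.25 ± 0.129, Ddit3 at 0.48 ± 0.095, Atf4 at 0.38 ± 0.070 and asparagine synthetase Asns at 0.34 ± 0.075 (SE; adjusted p at most 0.00239). Of 7 p53 targets, 3 were higher and none lower (median 0.12), the cell cycle inhibitor Cdkn1a by 1.92 ± 0.200 (SE; adjusted p = 0.0017). Without the block, Cdkn1a (adjusted p = 0.00497) was the 1 call of the p53 list and no gene of the ATF4 list was called.

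Of 4 measured proline carriers, Slc36a4 (0.37 ± 0.069) and Slc38a2 (0.30 ± 0.064) were higher at 10 µM with the block and none was lower (log2 ± SE; adjusted p = 0.000291 and 0.00111). Among the ornithine and polyamine genes 2 of 13 were higher and 3 lower. Odc1, which takes ornithine to polyamines, was higher by 0.45 ± 0.067, and the ornithine carrier Slc25a15 was lower at -0.35 ± 0.076 (SE; adjusted p = 2.29e-05 and 0.00129). Of 9 glutamate neighbours, the glutaminase Gls2 was higher by 0.90 ± 0.181 and the mitochondrial glutamate carrier Slc25a22 lower at -0.61 ± 0.090 (SE; adjusted p = 0.000694 and 1.65e-05). Slc25a22 was the 1 gene of that list called without the block (adjusted p = 0.0443). Hoga1 was the 1 of 4 other proline enzymes that was called, higher by 0.65 ± 0.203 (SE; adjusted p = 0.0245), and of 9 genes of proline release Xpnpep1 was higher by 0.29 ± 0.063 and Dpp7 lower at -0.26 ± 0.083 (SE; adjusted p = 0.00145 and 0.0261).

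Prodh also differed between passages, with passage 14 above both others. With treatment held, Prodh was higher at passage 14 than at 12 by 0.68 ± 0.130 and lower at 18 than at 14 by a log2 difference of -0.85 ± 0.131 (SE; adjusted p = 0.000333 and 1e-05), where 20.8% and 32.1% of 15949 genes passed. The call for 14 against 12 was lost in 1 of 13 alternative fits, the one without the treatment term (adjusted p = 0.121), and that for 18 against 14 in none of 13. Passages 18 and 12 differed by -0.17 ± 0.134 (adjusted p = 0.345). The mean over treatments was 10.9 ± 2.42 CPM at passage 14 against 6.91 ± 1.66 at 12 and 6.12 ± 1.55 at 18 (SD, n = 3). Each passage is 1 set of 3 libraries that differ in treatment and may share a culture.

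Aldh4a1 and Oat each passed in 1 passage comparison. Aldh4a1 was higher at 18 than at 12 by 0.33 ± 0.114 (SE; adjusted p = 0.0263), where 33.9% of genes passed, and lost the call in 7 of 13 alternative fits, DESeq2 and the fit without treatment among them. Oat was lower at 18 than at 14 at -0.19 ± 0.063 (SE; adjusted p = 0.0187) and lost the call in 6 of 13. Pycr1 at 14 against 12 (0.44 ± 0.170, adjusted p = 0.0706) and Aldh18a1 at 18 against 14 (-0.16 ± 0.070, adjusted p = 0.0855) did not pass. The reductase Pycrl was higher at 14 than at 12 by 0.22 ± 0.066 (adjusted p = 0.0155) and lower at 18 than at 14 at -0.21 ± 0.066 (adjusted p = 0.0171), and 18 differed from 12 by 0.02 ± 0.067 (adjusted p = 0.866).

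**Figure D4:**
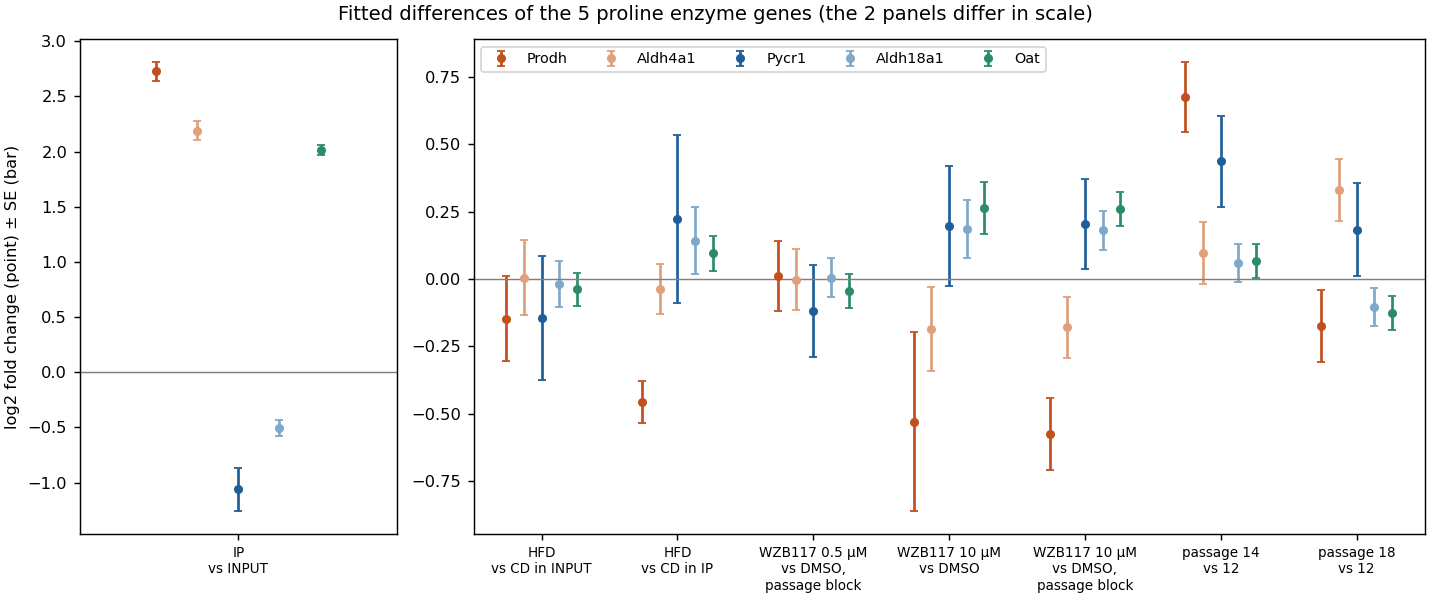
Log2 fold change (points) with SE (bars) of the 5 genes in 8 comparisons; the left panel, of IP and INPUT, has a wider scale than the right panel, and positive values are higher in the first-named group. Prodh is the lowest of the 5 in HFD against CD in IP (-0.46, a comparison used to choose it) and in 10 µM WZB117 against DMSO (-0.53 without and -0.58 with the passage block).

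The genes with the most similar profile were ranked by Pearson correlation of log2 CPM, as a description, since the libraries share fraction, diet or passage. Over the 16 hypothalamus libraries and about 12200 candidate genes, Prodh was nearest to St3gal4 (r = 0.995), Klhdc7a (0.994), Pfkm (0.993), Pccb (0.993) and Repin1 (0.993). Aldh4a1 was nearest to Acads and Gtf2i (both 0.995), Oat to Tspan12 (0.999) and Spire1 (0.998), Aldh18a1 to Alox5ap (0.955), and Pycr1 to Ube2d1 (0.954) and Cep135 (0.934). Over the 9 cEND libraries, Prodh was nearest to Rftn1 (0.981) and Plscr2 (0.977), Oat to Tbl2 (0.993) and Tnfaip3 (0.986), Aldh18a1 to Uck1 (0.979) and Mad2l2 (0.972), Aldh4a1 to D16Ertd472e (0.974) and Rp1 (0.973), and Pycr1 to Dpf1 (0.969) and Cdc42bpa (0.968). No other member was among the nearest genes of a member in either table.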

How the data were processed

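RNA sequencing of 25 libraries was analysed from a pair of tables of estimated counts per Ensembl gene, deposited by the authors without scaling to a common total. The genome build was GRCm38 per the submitters' processing notes, and the counting program, annotation and strand setting are not given in the sources used here. Coordinates and symbols were taken from GENCODE release M21 by identifier, and upstream sequences from RefSeq (GRCm38.p6). Of the values, 17.3% in the hypothalamus table and 19.8% in the cEND table were not whole, and counts were rounded.

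Differences were fitted with the quasi-likelihood test of edgeR 4.0.16 in R 4.3.3 (filterByExpr, TMM factors, robust, 2-sided), adjusted by Benjamini-Hochberg over all genes of a comparison, at a threshold of 0.05. Printed CPM used TMM factors of all libraries of a table, and fold changes came from each comparison's own fit. IP was compared with INPUT over 16 libraries, diets within a fraction over 8, and cEND groups over 9, and passages were compared with treatment as a term. Alternatives were RLE size factors, no filter, DESeq2 1.42.0, a replicate block, other sample sets and leaving out each library. The fits were tested on simulated data. No pair of libraries of a group agreed within sampling noise (lowest chi-square per degree of freedom 9.08). The cEND passage numbers pair the samples by their labels, and deviations of libraries of a passage correlated at 0.38 to 0.58, so passage-blocked values are given where they change a call.

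The 5 genes, the pathway lists and the marker lists were chosen with earlier results of these data known. Beside the 5 genes, up to 4 genes per list with the smallest p in a comparison were named, and for likeness 5 genes for Prodh and 2 for each other member. Markers and list medians are described by counts with no set test. Slc6a7, Slc1a2, Agt, Aqp4, Gja1, Gfap and the Y-linked genes stand outside that rule and were named after their values were seen. Some genes that the rule names are not reported here.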

Additional observations from a re-analysis of the deposited data

How the results depend on the processing

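The IP and INPUT differences of all 5 members kept their direction and call in all 21 alternatives, and no member passed for diet in INPUT in any of 13. The number of genes called moved more. For HFD in INPUT (6 genes) it was 116 with no filter, 50 in DESeq2, 2 in a fit of all 16 libraries and 2 to 17 with 1 library left out (2 without CD INPUT 3 or HFD INPUT 4, 12 without CD INPUT 4, 17 without HFD INPUT 2). For HFD in IP (14 genes) it was 398, 183, 121 and 5 to 50 in that order (33 without CD IP 1, 8 without CD IP 3, 5 without CD IP 4, 6 without HFD IP 1, 50 without HFD IP 2, 9 without HFD IP 3 and 8 without HFD IP 4). Whether an IP and an INPUT library of the same number come from 1 pool is not stated in the labels. Their deviations correlated at -0.01 to 0.14. The INPUT library of the same number was the best match for every CD IP library and for HFD IP 2 and 4, but not for HFD IP 1 and 3. The pairing is therefore unsettled. A replicate block on that number called 15274 genes against 14724 and changed no member's call. Between diets the numbers correlated at -0.02 to 0.07, and a block on them called 47 genes in INPUT and 50 in IP and changed no member's call in INPUT. The passage block called 1 gene at 0.5 µM, 2849 at 10 µM against DMSO and 2733 between doses, against 0, 197 and 197 without it, and DESeq2 called 504 and 483 in the last 2. Leaving out 1 library without the block gave 38 to 195 genes for 10 µM against DMSO (38, 61 and 112 without DMSO at passage 12, 14 or 18, 42 and 103 without 10 µM at passage 12 or 18) and 33 to 152 between doses (118 without DMSO at 14, 34 and 54 without 0.5 µM at 12 or 14, 33 and 92 without 10 µM at 12 or 18). Without the treatment term, passage called 3269 genes for 18 against 12 (5412 with it), 1623 for 14 against 12 (3318) and 2924 for 18 against 14 (5116), and Prodh lost its call for 14 against 12 (adjusted p = 0.121). Leaving out 1 library gave 2086 to 3668 genes for 14 against 12 (2086 without DMSO at 12, 2102 without 0.5 µM at 14). The cause was not tested for any of these. Pycr1 rests on 10 to 65 counts in a hypothalamus library, the fewest of the 5 members.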
